A study of Rattus norvegicus with 6 samples.

Results

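Cadherins, catenins and connexins build the contacts that hold germ cells and somatic cells together in the newborn ovary, and 7 genes of these families were chosen by symbol for a description across cultured ovaries: Cdh1, Cdh2, Ctnna1, Ctnnd1, Gja1, Gja4 and Gjc1. Of these, 6 had a probe set that the platform annotation gives to that gene alone, 1 probe set each among 27342 on the array, and Gjc1 had no such probe set and was not analysed here. The arrays came from whole ovaries of female Sprague-Dawley rat pups taken on the day of birth (age 0 days) and kept on floating filters for 24 h. The control group had 3 pools of ovaries with no addition, and the CTGF group had 3 pools cultured with human recombinant connective tissue growth factor (CTGF) at 500 ng/ml. Each pool held 2 to 3 ovaries of different pups of a litter, and 1 control and 1 CTGF pool shared each of 3 organ culture dates, here called batches 1 to 3. The question was which transcripts CTGF alters while oocyte nests break down into primordial follicles.

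Classical cadherins are membrane proteins that bind the same cadherin on the neighbouring cell. Inside the cell their tails hold p120-catenin, which keeps the cadherin at the surface, and β-catenin, which in turn binds α-catenin and through it the actin cytoskeleton. Connexins assemble as hexamers into channels, and channels of adjoining cells dock to form the gap junctions through which oocytes and granulosa cells exchange small molecules. In rodent ovaries E-cadherin is known from germ cells and the surface epithelium, connexin Cx43 from granulosa cells and connexin Cx37 from the contact between oocyte and granulosa cells.

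None of the 6 genes passed the test between CTGF and control ovaries. With limma, a linear model with culture batch as a block, 0 of the 6 passed an adjusted p of 0.05 (adjusted p = 0.994 for each), and 0 passed an unadjusted p of 0.05 in either direction. Over all probe sets 0% passed the adjusted and 3.35% the unadjusted threshold, 1.45% higher and 1.89% lower with CTGF. The methods' 2-way test, which does not borrow spread from other probe sets, also called 0 of the 6 at an unadjusted p of 0.05. Over the whole array of 27342 probe sets that test called 1147. The largest difference of the 6 was that of Cdh1, 0.887 times control, and all 6 intervals of 95% lay within 1.5-fold of control in both directions, as did those of 98.9% of all probe sets. For Ctnna1, Ctnnd1 and Gja4 the interval also lay within 1.2-fold, but the share of all probe sets for which this holds was not computed. The control and CTGF values overlapped for all 6 genes, and 0 of them had the same sign in the 3 batches. Over all probe sets the groups did not overlap in 20.3%. Both counts are the same by construction, because the deposited values of a probe set have 1 mean for every pair of pools, to within 0.005, in all 3 batches.

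**Figure D1:**
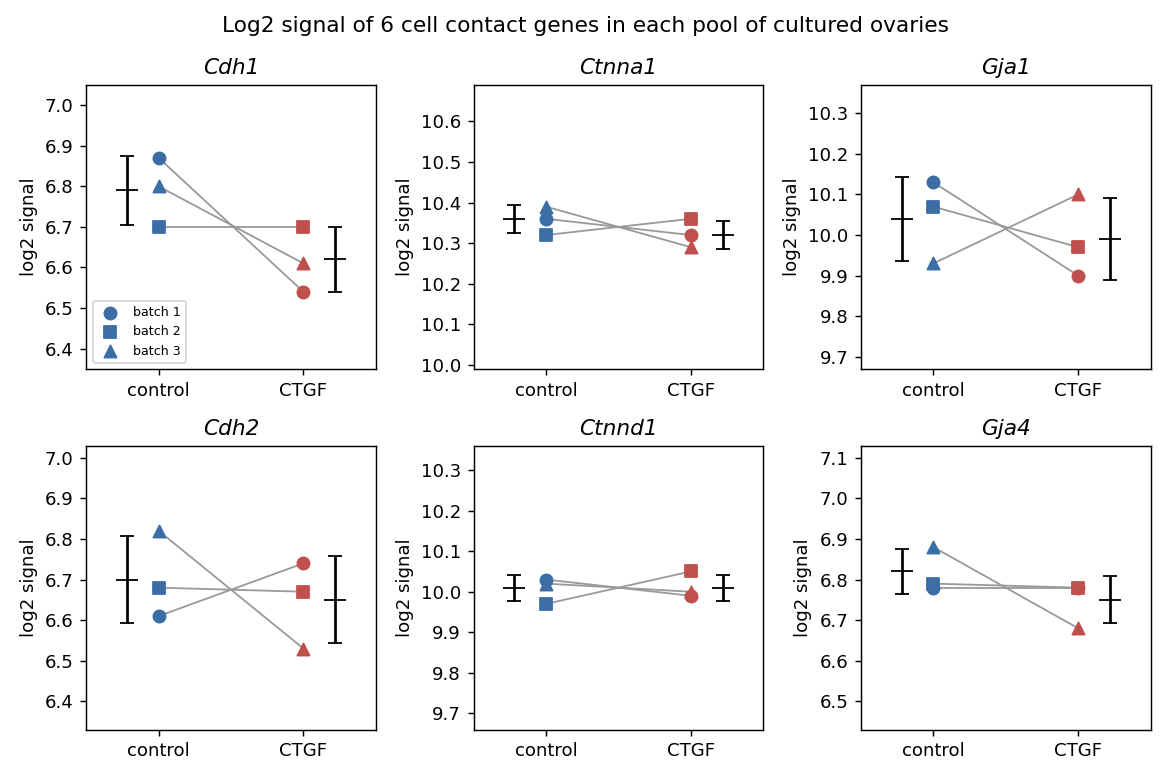
Log2 signal (vertical axes, each spanning the same range around the gene's mean) of 6 cell contact genes in 3 control (blue) and 3 CTGF (red) pools, with lines joining the pools of a culture batch and black bars for the mean and SD of 3 arrays. Cdh2 and Gja1 have rising and falling lines, Cdh1 has 2 falling lines and 1 level line, and the values of Ctnna1 and Ctnnd1 lie close together. The lines of each gene meet near its mean, because differences between batches had been removed from the deposited values.

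Cdh1 encodes E-cadherin, the cadherin of epithelia and of germ cells. Its log2 signal was 6.87, 6.70 and 6.80 in control batches 1, 2 and 3, and 6.54, 6.70 and 6.61 in the CTGF pools of the same batches. Thus the CTGF pool lay below its control in batches 1 and 3 and level with it in batch 2, and the lowest control value was equal to the highest CTGF value. On the un-logged scale the mean signal was 111 ± 6.52 (SD, n = 3) in control and 98.2 ± 5.48 (SD, n = 3) with CTGF. The mean log2 difference, CTGF minus control, was -0.17 (standard error 0.08, 95% interval -0.37 to 0.03). Its unadjusted p in limma was 0.0788 and its adjusted p 0.994. The difference was larger in size than that of 94.5% of all probe sets, and than that of 92.4% of the 500 probe sets nearest in signal. The call depended on the batches used. Without batch 2, where both pools had the same value, the log2 difference was -0.26 with an unadjusted p in limma of 0.0444 (adjusted p = 0.988, with 0.241 to 1 over all alternatives), and without batch 1 it was -0.10 with an unadjusted p of 0.340 (adjusted p = 0.978).

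Cdh2 encodes N-cadherin, the cadherin of mesenchyme, nerve and granulosa cells. Its log2 signal in the control pools was 6.61, 6.68 and 6.82, and in the CTGF pools 6.74, 6.67 and 6.53. The 2 pools differed most in batch 3, and in batch 1 the CTGF pool was the higher one. With batch means removed, the batch that differs most always holds the highest and the lowest value. The mean signal was 104 ± 7.82 (SD, n = 3) in control and 100.4 ± 7.35 (SD, n = 3) with CTGF. The mean log2 difference was -0.06 (standard error 0.09, 95% interval -0.28 to 0.17), and without batch 3 it was 0.06. Both cadherins were compared within each array as the log2 ratio of Cdh1 over Cdh2, to see whether E- and N-cadherin moved apart. This ratio differed by -0.46, 0.01 and 0.10 between CTGF and control in the 3 batches, a mean of -0.12 (exact permutation test over exchanges within batches, two-sided, p = 1). That test cannot give a p below 0.25 with 3 pairs, and it was run on 3 such ratios.

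Ctnna1 encodes αE-catenin, which links the cadherin complex to actin. The control pools had log2 signals of 10.36, 10.32 and 10.39 and the CTGF pools 10.32, 10.36 and 10.29, so that the 6 values lay within 0.10 of each other. The mean log2 difference was -0.03 (standard error 0.07, 95% interval -0.19 to 0.13). Ctnnd1 encodes p120-catenin, which binds near the membrane and slows the uptake of cadherins into the cell. Its log2 signals were 10.03, 9.97 and 10.02 in control and 9.99 and 10.05 with CTGF in batches 1 and 2, while the CTGF pool of batch 3 lay 0.02 below its control. The mean log2 difference of Ctnnd1 was 0.01 (standard error 0.07, 95% interval -0.15 to 0.17). Its 2 pools differed most in batch 2. These 2 catenins had the narrowest intervals of the 6 genes, and the SDs of their 3 differences, 0.0702 and 0.0643, were below those of the 4 other genes. The log2 ratio of Ctnna1 over Ctnnd1 had a mean of 0.35 in control and 0.31 with CTGF (exact permutation test over exchanges within batches, two-sided, p = 0.5, adjusted p = 1 over 3 ratios). The ratio was level in batch 1 and lower with CTGF by 0.04 and 0.08 in batches 2 and 3.

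Gja1 encodes connexin Cx43, the main gap junction protein between granulosa cells. Its log2 signal was 10.13, 10.07 and 9.93 in the control pools and 9.90, 9.97 and 10.10 in the CTGF pools. CTGF pools were thus lower in batches 1 and 2 and higher in batch 3, and the 2 groups covered nearly the same range. The mean signal was 1057 ± 74.2 (SD, n = 3) in control and 1019 ± 72.3 (SD, n = 3) with CTGF, with a mean log2 difference of -0.05 (standard error 0.09, 95% interval -0.27 to 0.17). Without batch 1 the log2 difference was 0.04. The SD of its 3 differences, 0.204, was larger than in 87.8% of the 500 probe sets nearest in signal. The Gja1 promoter is shown because it holds the letters of a site for AP-1, the family of Fos and Jun dimers, whose genes were also measured. The 300 bases of RefSeq assembly GRCr8 run from 250 before to 50 after the gene's start at chr20:36302314-36302613, plus strand, with the AP-1 letters in capitals.
Gja1: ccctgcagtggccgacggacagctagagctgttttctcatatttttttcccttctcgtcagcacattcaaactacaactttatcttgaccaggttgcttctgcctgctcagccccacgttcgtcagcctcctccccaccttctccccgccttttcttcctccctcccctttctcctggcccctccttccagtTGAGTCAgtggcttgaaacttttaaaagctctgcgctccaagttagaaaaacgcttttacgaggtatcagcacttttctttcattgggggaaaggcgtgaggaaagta
The letters searched were TGAGTCA and TGACTCA, which are each other's reverse complement, and 4.63% of 33469 promoters of the same length hold them. In Gja1 the match lies 58 to 52 bases before the start. Of 7 AP-1 genes 5 had a probe set, and 0 of them passed an unadjusted p of 0.05 in limma. Jun had log2 signals of 7.80, 7.81 and 8.00 in control and 8.00, 7.98 and 7.79 with CTGF. Fos had 4.75, 4.82 and 4.74 in control and 4.91, 4.84 and 4.91 with CTGF, a mean log2 difference of 0.12 (standard error 0.07). In all 3 batches the CTGF pool had the higher Fos value, at a level below the 95th percentile of genes of other organs (5.62).

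Gja4 encodes connexin Cx37, which joins the oocyte to its granulosa cells and is also made by the endothelium of arteries. Its log2 signal was 6.78, 6.79 and 6.88 in control and 6.78, 6.78 and 6.68 with CTGF. The pools were level in batch 1 and within 0.01 in batch 2, and differed by -0.20 in batch 3. Its mean signal was 113 ± 4.35 (SD, n = 3) in control and 107 ± 4.25 (SD, n = 3) with CTGF, a mean log2 difference of -0.07 (standard error 0.07, 95% interval -0.25 to 0.11). Its promoter, at chr5:144920275-144920574 on the minus strand of GRCr8, is shown beside that of Gja1 because these connexins differ in their proximal sequence. The capitals mark a GC box.
Gja4: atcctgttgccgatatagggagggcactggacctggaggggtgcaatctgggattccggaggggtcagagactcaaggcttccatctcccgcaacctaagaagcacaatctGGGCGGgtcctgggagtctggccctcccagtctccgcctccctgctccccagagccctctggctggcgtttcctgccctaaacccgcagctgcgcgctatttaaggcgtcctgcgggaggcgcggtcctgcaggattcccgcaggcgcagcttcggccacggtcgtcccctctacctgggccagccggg
The GC box, searched as GGGCGG or CCGCCC, lies 139 to 134 bases before the start in Gja4, and 33.06% of the promoters hold it. The AP-1 letters are not in this Gja4 window, nor the GC box letters in that of Gja1. Of the member genes only Gja1, Gja4 and Ctnnd1 had a promoter sequence to search, and that of Ctnnd1 held neither. Within arrays the log2 ratio of Gja1 over Gja4 had a mean of 3.23 in control and 3.24 with CTGF. It differed by -0.23, -0.09 and 0.37 between CTGF and control in the 3 batches (exact permutation test over exchanges within batches, two-sided, p = 1).

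**Figure D2:**
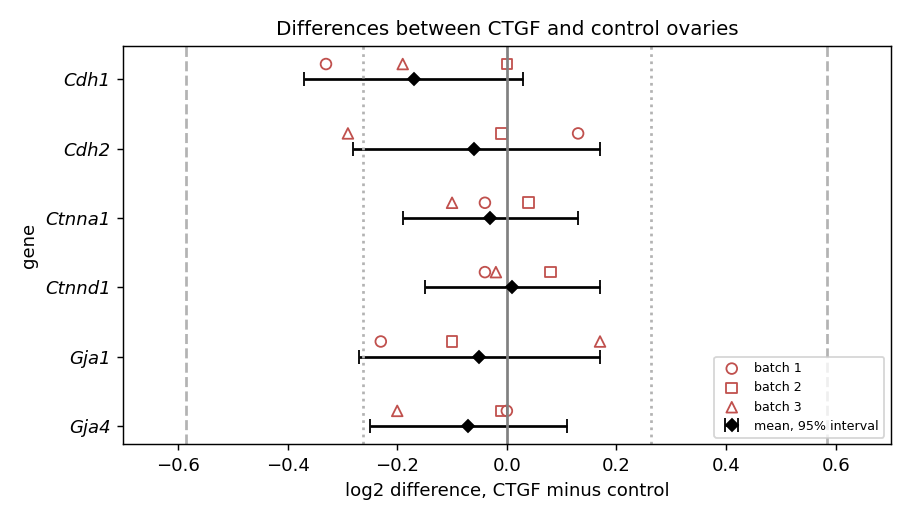
Log2 difference between CTGF and control (horizontal axis) for 6 genes, with the mean and its 95% interval from limma (black) and the value in each culture batch (red). Dotted and dashed lines stand at 1.2-fold and 1.5-fold, every interval holds 0 and lies inside the dashed lines, and that of Cdh1 reaches from -0.37 to 0.03.

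By the study's own criteria, a ratio of un-logged means over 1.2 or under 0.83, a difference of these means over 10 and a p under 0.05, here that of limma, 0 of the 6 genes were called, against 0.435% of all probe sets. The difference of un-logged means was over 10 for Cdh1, Ctnna1 and Gja1, at -12.6, -30.0 and -38.4, and 0 of the 6 genes reached the ratio. Of the 6 genes, 5 were lower on average with CTGF and 1, Ctnnd1, was higher, beside 52.7% of all probe sets that were lower. Their median log2 difference was -0.06 (0.00 over the whole array), and the median of its sizes 0.06 (0.05 over the whole array). All 6 had a mean log2 signal above 5.62, the 95th percentile of 42 probe sets of genes of other organs, as did 52.6% of all probe sets.

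For 5 of the 6 genes, all but Cdh1, the SD of the 3 batch differences was larger than the size of their mean. The share of all probe sets for which this holds was not computed, so the count is a description only. In batch 1 Cdh1 and Gja1 had log2 differences of -0.33 and -0.23 while Cdh2 had 0.13, and in batch 3 Cdh2 had -0.29, Gja4 -0.20 and Cdh1 -0.19 while Gja1 had 0.17. In batch 2 none of the 6 differed by more than 0.10. The Cdh1 value of batch 1 was larger in size than 95.1% of all probe sets in that batch, and the Cdh2 value of batch 3 larger than 90.4%. Each batch holds 1 pool per group, so a difference between batches could not be tested against the spread of pools. Across all probe sets the median difference was 0.00, -0.01 and 0.00 in the 3 batches.

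The marker genes of ovarian cell types gave a measure of what the pools held. Of 14 oocyte genes 9 had probe sets, 13 in all with 5 of them for Dppa3, and all 13 lay above the level of the genes of other organs, as did all 8 of the pregranulosa list, such as Wt1 and Kitlg. In a whole ovary fewer cells of a type and less RNA per cell cannot be told apart. In batch 3, 5 of the 6 genes, all but Gja1, were below control, beside 47.4% of all probe sets. Cdh2 was at -0.29, Gja4 at -0.20, Cdh1 at -0.19, Ctnna1 at -0.10 and Ctnnd1 at -0.02. In that batch the medians of the 9 stromal and smooth muscle, 6 endothelial and 7 leukocyte probe sets were -0.40, -0.28 and -0.32. In batches 1 and 2 the medians were 0.12 and 0.04 for the stromal list and 0.06 and -0.01 for the endothelial list. For the leukocyte list they were -0.06 in both. Of the leukocyte list the mast cell gene Cpa3 had log2 differences of -0.14, -0.80 and -1.52 in the 3 batches. It was the only probe set of these 3 lists past the unadjusted threshold, with an unadjusted p in limma of 0.0121 and an adjusted p of 0.994. Of the oocyte list Kit also passed it, with log2 differences of 0.12, 0.15 and 0.31 (unadjusted p in limma 0.0326, adjusted p 0.994). The stromal receptor gene Pdgfra had 0.11, -0.14 and -1.03. The summed signal of the stromal list ranged from 5790 to 7096 in control and from 5177 to 6320 with CTGF, that of the endothelial list from 470 to 530 and from 431 to 481, and that of the leukocyte list from 855 to 1081 and from 717 to 867. The leukocyte sum includes Cpa3, with log2 signals of 8.05, 8.38 and 8.74 in control and 7.91, 7.58 and 7.22 with CTGF. A sum without Cpa3 was not computed, so the leukocyte sum does not describe leukocytes as a whole. Of the stromal, endothelial and leukocyte lists 8 of 9, 3 of 6 and 6 of 7 probe sets lay above the level of the genes of other organs. Their part in the values of the 5 genes was not tested.

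Germ cells and surface epithelium are known to make E-cadherin. Where Cdh1 had -0.33, 0.00 and -0.19 in the 3 batches, the oocyte list had medians of 0.17, 0.15 and 0.05, with 3, 4 and 6 of its 13 probe sets below control. These medians and counts weigh Dppa3 several times, once for each of its probe sets. All Dppa3 probe sets were above control in batches 1 and 2 and below it in batch 3. Apart from them, only Zp1 of the oocyte list was below control in batch 3, at -0.43. The list of surface epithelium and mesonephros, with 6 of 9 probe sets above the level of the genes of other organs, had medians of 0.12, 0.19 and -0.09, with 4, 0 and 7 of the 9 below control. The summed signal of the oocyte list was 6033 to 6496 in control and 6285 to 6769 with CTGF, and that of the epithelial list 4113 to 4279 and 4185 to 4346. The part of these cells in the Cdh1 values was not tested. For Gja1 in batch 1, at -0.23, the pregranulosa list had a median of -0.14, and in batch 3, where Gja1 was 0.17, one of -0.01. Its summed signal was 4733 to 5124 in control and 4761 to 5153 with CTGF, and its part in the Gja1 values was not tested.

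**Figure D3:**
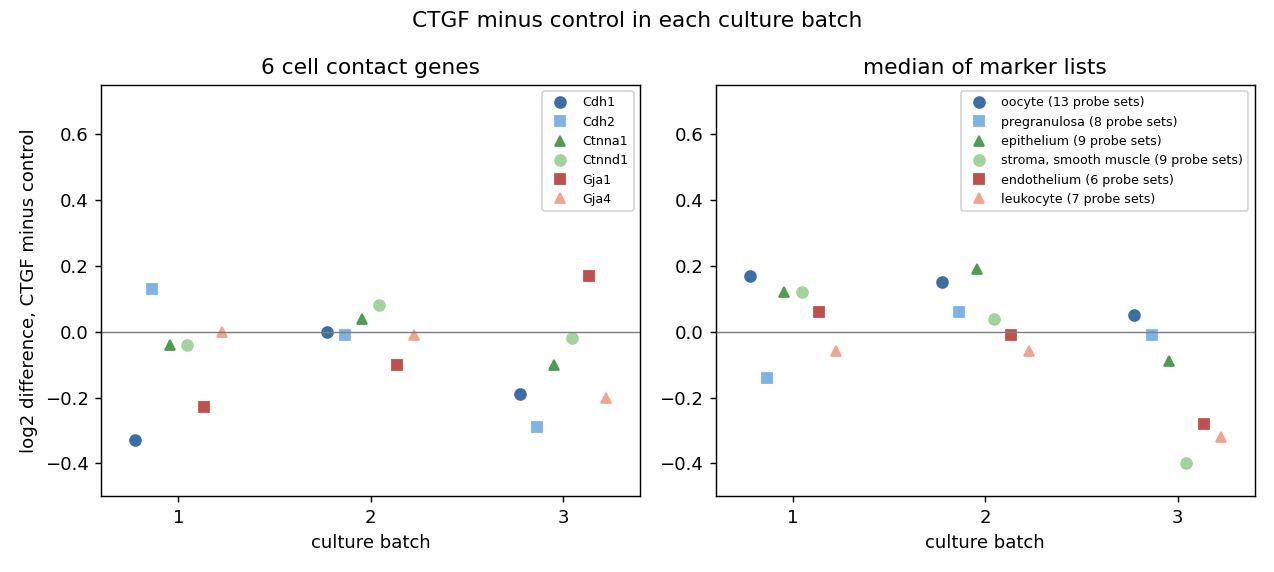
Log2 difference between CTGF and control (vertical axis) in culture batches 1 to 3 (horizontal axis) for the 6 cell contact genes (left) and as the median of each marker list (right). In batch 3 Gja1 lies above 0 and the 5 other genes below it, beside 47.4% of all probe sets below 0. The medians of the stromal, endothelial and leukocyte lists lie between -0.40 and -0.28 in that batch, and between -0.06 and 0.12 in batches 1 and 2.

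Other genes of cell contacts were taken from 6 lists, 99 genes in all, of which 75 had a probe set and 76 probe sets were measured. With limma 0 of the 76 passed the adjusted threshold (smallest adjusted p on the array 0.994), and at an unadjusted p of 0.05 0 were higher and 1 was lower, 1.32% against 3.35% of all probe sets. That 1 gene was Cby1, which encodes an antagonist of β-catenin and had log2 differences of -0.46, -0.28 and -0.32 in the 3 batches. The study had already listed Cby1 among the genes that CTGF altered on these same arrays. Its call here is thus not independent of that list. Among the 18 probe sets of catenins and their partners, 11 were above and 7 below control, with a median log2 difference of 0.03. Ptpn1, a tyrosine phosphatase that acts on the cadherin complex, had a log2 difference of 0.13 (standard error 0.07), and its pools differed by 0.02, 0.24 and 0.12. Ctnna2, the neural α-catenin, had one of 0.12 (standard error 0.07) at a signal below the level of the genes of other organs. For Ctnnb1, β-catenin itself, and Jup, γ-catenin, both named for their role after their values were seen, the log2 differences were 0.03 (standard error 0.08) and -0.01 (standard error 0.08).

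Of the 18 probe sets of other cadherins and desmosome genes, 7 were above and 11 below control with a median of -0.02, and only 4 of the 18, Pkp2, Dsc2, Cdh13 and Cdh6, lay above the level of the genes of other organs. These 4 were named for that level after their values were seen. The 3 with the smallest p were all below it. Pkp1, a desmosomal plaque gene, had a log2 difference of 0.10 (standard error 0.06), Cdh8 one of -0.11 (standard error 0.08) and Cdh5, the cadherin of endothelium, one of -0.13 (standard error 0.10). Cdh5 had its lowest difference, -0.36, in batch 3. The nectins and related adhesion genes, which found contacts before cadherins gather there, had 4 of 7 probe sets above control and 3 below with a median of 0.02. Cadm3, Nectin1 and Nectin4 had the smallest p of these, with log2 differences of 0.09, 0.08 and -0.12, all below the level of the genes of other organs.

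The other connexins and the pannexins were all near background, with 0 of 13 probe sets above the level of the genes of other organs, while Gja1 and Gja4 both were above it. Of the 13, 3 were above and 10 below control, with a median log2 difference of -0.02. Gja3, a lens connexin, had a difference of -0.15 (standard error 0.08), Gjb2, a connexin of epithelia and the inner ear, one of 0.16 (standard error 0.09), and Gjd2, a neuronal connexin, one of -0.12 (standard error 0.08). Of 13 probe sets of tight junction genes, 8 were above and 5 below control, with a median of 0.03. Cldn1, a sealing claudin, had log2 signals of 6.35, 6.49 and 6.73 in control and 6.40, 6.26 and 6.02 with CTGF, a mean log2 difference of -0.30 (standard error 0.14) that was positive in batch 1. F11r, a junctional adhesion molecule, had one of 0.19 (standard error 0.10), its batch 2 pools differing by 0.47, and Cldn11 one of 0.21 (standard error 0.12) below the level of the genes of other organs.

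The transcription factors known to repress Cdh1 had 7 probe sets, 3 above and 4 below control, with a median of -0.01. Snai1, Twist2 and Snai3, the 3 with the smallest p, had log2 differences of -0.06, 0.08 and 0.04, at signals below the level of the genes of other organs. The 4 others, Zeb1, Zeb2, Twist1 and Tcf3, lay above that level and were named for it after their values were seen. Beside -0.33, 0.00 and -0.19 for Cdh1 in the 3 batches, Zeb1 had -0.01, 0.06 and -0.07, and Zeb2 had 0.36, -0.08 and -0.35. Twist1 had -0.04, 0.26 and -0.30, and Tcf3 had 0.01, 0.04 and 0.03.

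**Figure D4:**
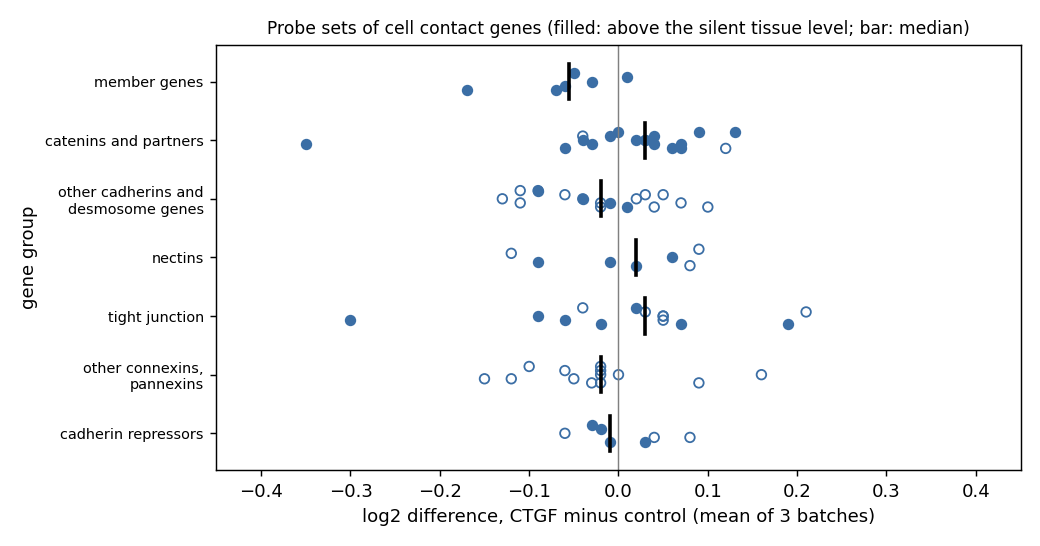
Mean log2 difference between CTGF and control (horizontal axis) for the probe sets of the 6 member genes and of 6 lists of cell contact genes (vertical axis), filled where the mean signal is above the 95th percentile of genes of other organs and open otherwise, with a bar at each median. Medians lie between -0.06 and 0.03, and Cby1 at -0.35 and Cldn1 at -0.30 lie farthest from 0.

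The genes most like each of the 6 were sought by the distance between their 3 differences, one per batch, over 9054 probe sets with 1 symbol and a signal above the level of the genes of other organs. The nearest to Cdh1 were Plekhg2 and Bud13, at distances of 0.01 and 0.0141, and 6 probe sets in all lay within 0.05 of it. The nearest to Gja1 were Marchf2 and Glis2, at 0.0374 and 0.0412, also with 6 within 0.05. Cdh2 was nearest to Dpysl3 and Adnp2, both at 0.02, with 13 within 0.05. Many more were as near to the genes with small differences, 97 to Ctnna1, 89 to Ctnnd1 and 53 to Gja4. Their nearest were Nsd3 and Selenof for Ctnna1, Nfya and Fut11 for Ctnnd1, and Tmem128 and Sbds for Gja4. With 3 values per probe set this likeness is a description only.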

How the data were processed

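The authors hybridized RNA of 6 ovary pools to Affymetrix rat whole-transcript gene arrays and combined the probes with the RMA algorithm of Partek (named in the methods and the submitters' processing notes), adjusted for GC content, into log2 signals. The deposited log2 values have 2 decimals, array medians of 5.82 to 5.84, and no value column without a sample. The number of arrays limits the precision. In these values differences between culture batches had been removed, so the deviations from the group mean of 2 arrays of a batch had correlations of -0.9988, -0.9988 and -0.9991, and the SD within a group leaves out the spread between culture dates. The labels name the culture batch that pairs the arrays, and the methods block for it. The control and CTGF SDs both follow from the same 3 differences.

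Tests were run in R 4.3.3 with limma 3.58.1 (functions lmFit and eBayes, batch as a block, 2 residual degrees of freedom), without a filter, adjusted by Benjamini-Hochberg over 27342 probe sets, and the procedure was tested on simulated data. Of 15097 probe sets with 1 symbol in the platform annotation, 15067 matched RefSeq by Entrez number, 323 had several symbols and 11922 none, and the last are unnamed here. Promoter sequences come from RefSeq, GRCr8. The named genes are the 6 members, the 3 with the smallest p of each contact list, marker genes, and the 2 nearest patterns per member. Jun and Fos of the AP-1 list, and the genes marked so in the text, were named after their values were seen. Jun was not among the 3 with the smallest p of the AP-1 list. The members and lists were chosen with earlier results of these data known, and the AP-1 list and the log ratios after the values were seen. The alternatives were no batch block, quantile normalization, centred medians, 2 signal filters, a robust fit with a trend, each batch left out and the methods' 2-way test.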

Additional observations from a re-analysis of the deposited data

How the results depend on the processing

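Over 10 alternatives the 6 members gave 60 log2 differences, of which 54 kept their direction, 3 were 0.00 (Ctnnd1 with quantile normalization, Ctnna1 and Gja4 without replicate 3) and 3 reversed: Gja1 was 0.04 without replicate 1 (-0.16 to 0.04 without one replicate), Ctnnd1 was -0.03 without replicate 2 (-0.03 to 0.03) and Cdh2 was 0.06 without replicate 3 (-0.15 to 0.06). These 3 were not past the threshold in any fit, and the differences ranged from -0.26 to 0.06. At an adjusted p of 0.05 the count stayed at 0 for all probe sets, the members and the contact lists under each alternative. At an unadjusted p of 0.05 limma called 915 probe sets. With no replicate block it called 4415, where 4 residual degrees of freedom are counted though batches had been removed. With only the 14384 probe sets above the level of the genes of other organs it called 404. In the main fit limma called 0 members, and 1, Cdh1, with no replicate block (unadjusted p = 0.0266). Without one replicate the count of members was 0 to 1, beside 645 to 1244 of 27342 probe sets over the whole array. Of the 76 probe sets of the contact lists limma called 1, 8 with no replicate block and 1 to 4 without one replicate, beside the array counts given above. The methods' 2-way test called 2 of the 76, beside 1147 of 27342 over the whole array. The cause of the other changes was not tested.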
